A study of Mus musculus with 6 samples.

Results

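The clustered protocadherins are a family of neuronal adhesion genes, and 58 of them were found by symbol among 19943 genes in RNA sequencing of the mouse medial prefrontal cortex. The symbols named 14 members of the alpha cluster, 22 of the beta cluster and 22 of the gamma cluster. Of the gamma members, 12 were gamma A, 7 gamma B and 3 C-type genes, and the alpha cluster held 2 further C-type genes. The members were chosen by symbol and not by their values, though earlier results of these data were known when the set was picked.

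The libraries came from total RNA of the medial prefrontal cortex of C57BL/6 mice, with 3 libraries of mice isolated for 3 weeks after weaning and 3 control libraries, named here isolated 1 to 3 and control 1 to 3. All samples are labelled with an age of 6 weeks, whereas the design text of the series gives 7 weeks, which was not reconciled. They give no sex, batch or control housing, and no genotype change was named for either group. Whether each library came from its own animal is not stated, so the p-values reflect only how far these libraries differ from each other, and that spread may be technical.

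Clustered protocadherins are cell-surface proteins that bind identical copies of themselves on neighbouring cells, and the combination a neuron displays serves as a molecular identity tag. Each alpha and gamma transcript joins 1 variable exon, which encodes the outside of the protein and has its own promoter, to constant exons shared by the whole cluster, while each beta gene is a single exon. Single neurons use a small, largely random choice of alpha, beta, gamma A and gamma B promoters, set by DNA methylation and by looping through CTCF and cohesin, whereas most C-type genes are used broadly. The family is known for self-avoidance of neurites, dendrite branching, axon tiling and survival of interneurons.

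All 58 members matched RefSeq genes on chromosome 18 of GRCm38.p6, in 3 neighbouring clusters. The alpha cluster spanned chr18:36930285-37188897, the beta cluster chr18:37264998-37521419 and the gamma cluster chr18:37661775-37841873. The annotated alpha and gamma transcripts had 4 exons each and the beta transcripts had 1. The exons common to a cluster made up a median of 53.5% of the exon bases of an alpha member and 44.8% of those of a gamma member. The beta members had a median of 0% of exon bases in common with another member, and at most 9.67%, for Pcdhb21. Its GENCODE model had 4705 exon bases, against a length of 2712 bases listed with the deposited values. A median of 40.0% of 50-base windows, the length of the reads, were unique to an alpha transcript within the family, against 55.2% for gamma and 95.7% for beta transcripts. Reads from the constant exons cannot be tied to a member by sequence and were shared out by the authors' estimation, so values of single alpha and gamma members are less certain than those of beta members and of cluster sums. Pcdhgb8 is a transcribed pseudogene in RefSeq. Its GENCODE model had 2796 exon bases, against a deposited length of 4645, and 13.4% of these bases were in common with other members. Where lengths differ like this, the shares may not describe the transcripts that were counted.

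The libraries held 18390902 to 18606573 expected counts in the isolated group and 18226448 to 18544306 in the control group. Members took up 0.130 to 0.136% of these counts in isolated libraries and 0.134 to 0.145% in control libraries. The deposited expected count estimates how many reads a gene gave. Levels within a gene are given as CPM, expected counts scaled to a common library size with TMM factors, and levels of different genes are compared in the deposited FPKM, which also divides by length. Among marker lists for the tissue, cortical glutamatergic neuron genes summed to 6109 to 7406 CPM in isolated libraries and 6326 to 7794 CPM in control libraries. Striatal projection neuron markers summed to 537, 535 and 2496 CPM in isolated libraries, against 1078, 3461 and 335 CPM in control libraries, so isolated 3 and control 2 stood apart from the rest of their groups. For the 5 members with the smallest p in each direction, the value without these libraries is given where it moved by over 1.5 times.

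The level of the members in the medial prefrontal cortex was led by C-type genes at the far end of the alpha and gamma clusters. Pcdhgc5, a C-type gamma protein found at inhibitory synapses, had the highest mean, 71.1 FPKM over 6 libraries. That was 13.8 times the median gamma member, and it was the highest gamma member in 6 of 6 libraries. Pcdhgc3, which is known to bind the Wnt pathway scaffold Axin1 and to promote dendrite branching, followed with 29.4 FPKM. Pcdhac2, the alpha C-type gene needed for the even spread of serotonergic axons, averaged 19.1 FPKM, 9.15 times the median alpha member, and led its cluster in 6 of 6 libraries. The other 2 C-type genes did not stand out: Pcdhgc4, the member required for survival of cortical interneurons, averaged 5.50 FPKM and Pcdhac1 averaged 2.23 FPKM, close to the cluster medians of 5.14 and 2.08 FPKM.

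Outside the C-type genes, Pcdhga11 with 11.4 FPKM and Pcdhga12 with 8.65 FPKM had the highest levels in the gamma cluster, followed by Pcdhga3 with 7.39 FPKM. In the alpha cluster these were Pcdha12 with 5.51, Pcdha5 with 3.08 and Pcdha9 with 2.99 FPKM, and the lowest was Pcdha8 with 0.330 FPKM. The beta cluster had the lowest median, 1.51 FPKM, and no member above Pcdhb17 at 5.26 FPKM, which led in 6 of 6 libraries. Pcdhb20 with 3.84 FPKM and Pcdhb9 with 3.46 FPKM came next in the beta cluster.

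Much of the order was not resolved by 6 libraries. Among neighbours in the order of mean FPKM, the ranges over 6 libraries overlapped for 10 of 13 pairs in the alpha cluster, 19 of 21 in the beta cluster and 18 of 21 in the gamma cluster. The steps without overlap were Pcdhac2 above Pcdha12, Pcdha12 above Pcdha5 and Pcdha1 above Pcdha8 in the alpha cluster. In the beta cluster they were Pcdhb17 above Pcdhb20 and Pcdhb4 above Pcdhb1. In the gamma cluster they were Pcdhgc5 above Pcdhgc3, Pcdhgc3 above Pcdhga11 and Pcdhgb5 above Pcdhgb8. The levels are a description with no test between genes.

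**Figure D1:**
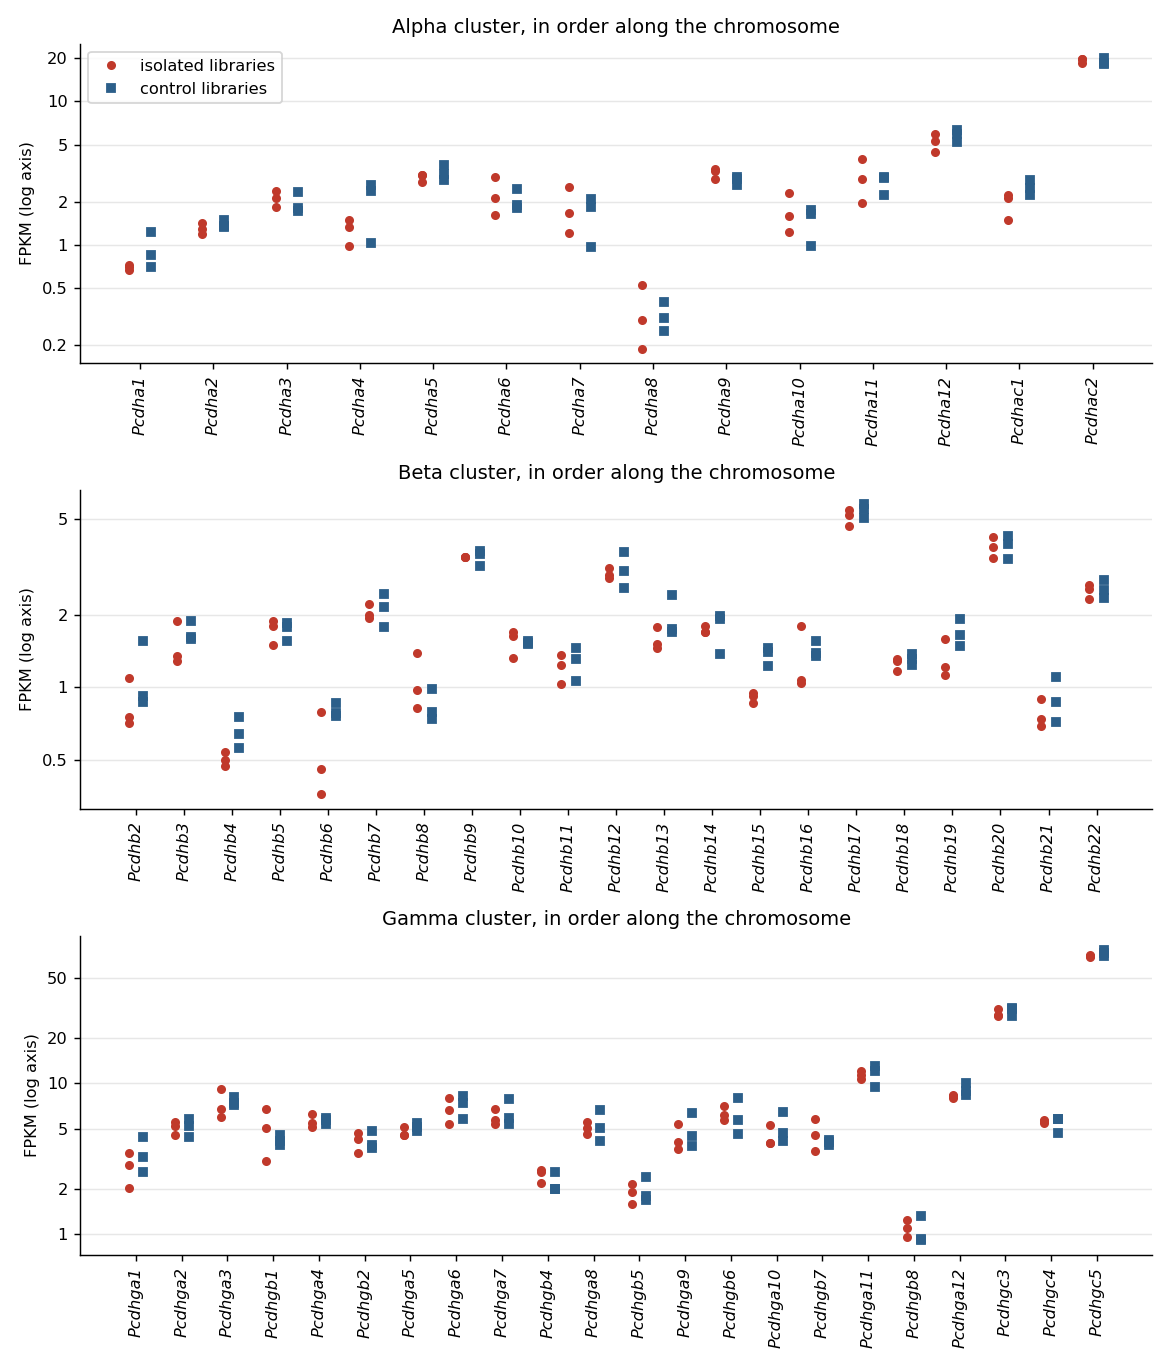
FPKM (log axis, with its own range in each panel) of 57 members in the order of their genes along the chromosome, with 1 point per library, isolated libraries as red circles to the left and control libraries as blue squares to the right. Pcdhb1 is not drawn. Pcdhac2 (mean 19.1 FPKM) and Pcdhgc5 (71.1 FPKM) stand highest at the right end of the alpha and gamma panels, and the points of both groups lie over each other for nearly all members.

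Pcdhb1, the first gene of the beta cluster, was at the edge of detection. It had 1 expected count in control 3 and 0 in the other 5 libraries, where a count of 0 allows up to 0.161 to 0.165 CPM. The remaining 57 members passed the filter on low counts, and their mean expected count per library ran from 28.5 for Pcdhb6 to 6207 for Pcdhgc5. Counting error was therefore largest for low beta and alpha members.

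As a share of all clustered protocadherin CPM, the gamma cluster made up 71.3 ± 1.2% in isolated libraries and 71.3 ± 2.0% in control libraries. The alpha cluster made up 19.0 ± 1.4% in isolated and 18.6 ± 1.7% in control libraries, and the beta cluster 9.69 ± 0.23% in isolated and 10.1 ± 0.21% in control libraries (SD, n = 3 each). These shares overlapped between the groups. CPM is not divided by length, so longer transcripts weigh more here: alpha lengths were 5206 to 5422 bases and beta lengths 2319 to 5278. In FPKM, the mean sums of alpha, beta and gamma were 47.0, 37.7 and 201 in isolated libraries. In control libraries they were 47.6, 40.5 and 208 FPKM. Pcdhgc5 alone held 34.7 ± 1.5% of gamma CPM in isolated libraries and 35.1 ± 1.7% in control libraries. Pcdhac2 held 41.8 ± 1.0% of alpha CPM in isolated libraries and 40.3 ± 1.4% in control libraries (SD, n = 3 each).

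The comparison of isolated with control mice asks how isolation after weaning relates to gene expression in this region. No clustered protocadherin passed an adjusted p of 0.05 by edgeR's quasi-likelihood test, and neither did any of the 15169 genes tested (percent called 0.0). At an unadjusted p under 0.05, 1 of 57 members was called, Pcdhb15, against 535 of all genes (3.53%). Leaving out 1 library gave between 2 members (without isolated 2) and 6 members (without isolated 3) at that unadjusted threshold, and 0 at the adjusted one. DESeq2 and limma-voom each gave 3 members at the unadjusted threshold and 0 at the adjusted one. In bulk tissue, fewer cells of a type and less RNA per cell cannot be told apart in any of these values.

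Most members had a slightly lower mean in isolated libraries. The fitted mean was higher in isolated libraries for 16 of 57 members, against 49.2% of all genes, and lower for 41, against 50.8% of all genes. By cluster, the mean was lower for 6 of 14 alpha, 19 of 21 beta and 16 of 22 gamma members. The median log2 difference was 0.07 over alpha, -0.07 over beta and -0.06 over gamma members, where all tested genes had a median of -0.00. The direction of single members leaned on control 2: without that library, the isolated mean was the higher one for 25 of 57 members. Without both control 2 and isolated 3, it was 21 of 57.

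The fitted log2 differences ran from -0.66 to 0.33 over the 57 tested members. Their 95% interval lay within 1 of 0 for 53 of 57, which still allows log2 differences of nearly 1. The interval included 0 for 56 of 57. The median standard error was 0.19 for alpha, 0.16 for beta and 0.15 for gamma members, against 0.10 for all tested genes.

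**Figure D2:**
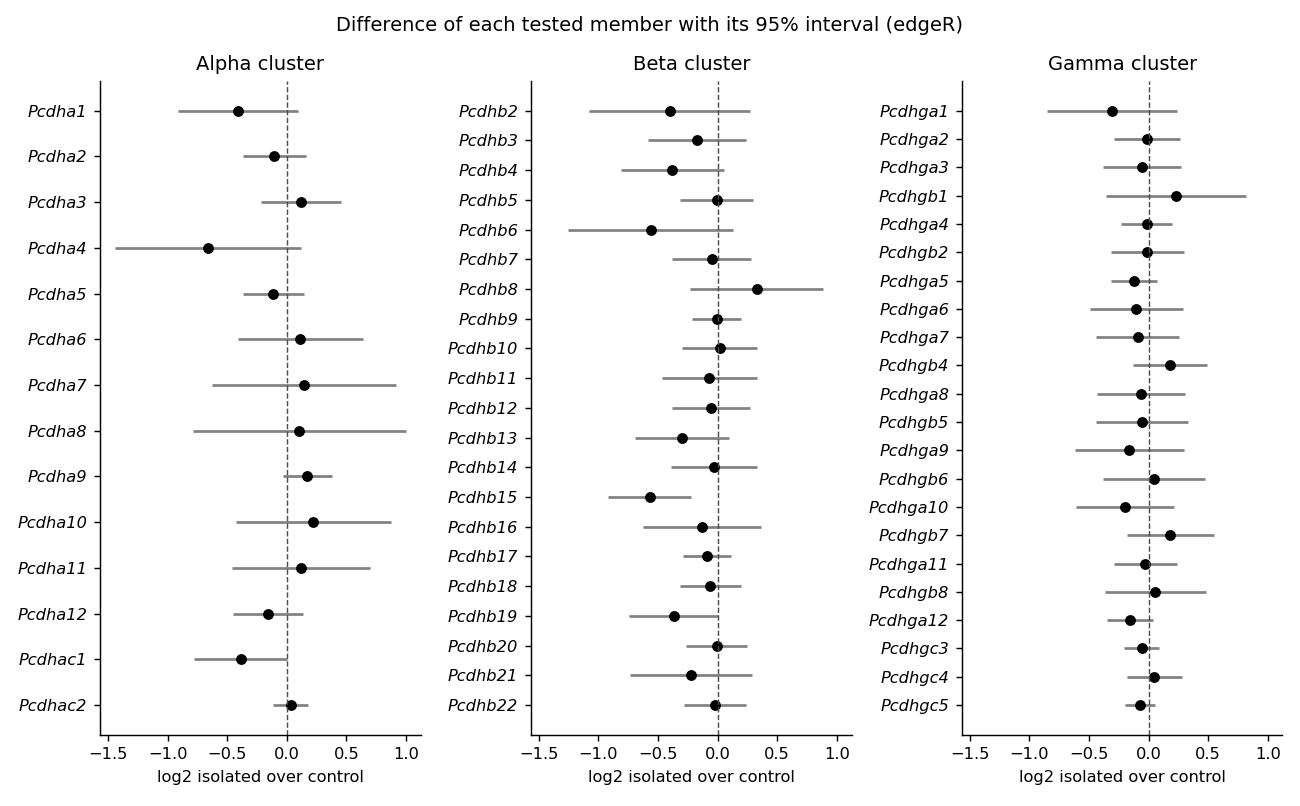
Log2 difference of isolated over control (x axis) of the 57 tested members by cluster, as points with 95% intervals from edgeR, in chromosome order from top to bottom. The interval of Pcdhb15 alone lies wholly on 1 side of 0, and 19 of 21 beta members lie left of 0.

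Summing a cluster removes the division of shared reads between its members. The alpha cluster summed to 267, 255 and 234 CPM in isolated libraries, against 255, 239.98 and 272 CPM in control libraries. The groups overlapped, and the log2 difference of the means was -0.02. With the alpha members added up to a single feature, edgeR gave -0.02 (standard error 0.07, 95% interval -0.19 to 0.15). The difference of the sums was 0.03 without control 3 and likewise without isolated 3.

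The gamma cluster summed to 936, 925 and 978 CPM in isolated libraries, against 949, 1057 and 944 CPM in control libraries. The groups overlapped, with control 2 the highest of its group and isolated 3 of its own. The log2 difference was -0.06, and the fit of the gamma cluster as a single feature gave a standard error of 0.06 and a 95% interval of -0.20 to 0.09. Leaving out control 2 brought the difference of the sums to 0.0016, and leaving out isolated 3 as well gave -0.02.

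The beta cluster summed to 128, 124 and 134 CPM in isolated libraries, against 135, 142 and 139 CPM in control libraries. The 3 isolated libraries lay below the 3 control libraries by a narrow margin, with means of 129 ± 5.0 CPM in isolated and 139 ± 3.2 CPM in control libraries (SD, n = 3 each) and a log2 difference of -0.11. Without control 2 and isolated 3 it was -0.12. Over the single beta members, 17 of 21 then had the lower mean in isolated libraries, and 13 of 21 did without control 3. The beta sum was not fitted as a single feature and has no interval. Among single tested genes 4.73% lay apart in this direction, but a sum over members varies less than single genes, so this share is no background for it. The marker sums of 2 other cell types were lower too: astrocyte genes summed to 4340 to 4516 CPM in isolated and 4665 to 4899 CPM in control libraries, with a lower mean in isolated libraries for 8 of 10. Vascular markers summed to 314 to 339 CPM in isolated and 344 to 386 CPM in control libraries, with a lower mean for 8 of 8. Microglia markers summed to 317 to 335.4 CPM in isolated and 334.9 to 363 CPM in control libraries, with a lower mean for 7 of 8. Mature oligodendrocyte markers had a higher mean for 10 of 10, with sums of 3626, 3903 and 6651 CPM in isolated libraries and 4655, 3316 and 2785 CPM in control libraries. The sums of the other marker lists overlapped between the groups. The part of these cells in the beta difference was not tested.

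Within the gamma cluster, all 12 gamma A members had a lower fitted mean in isolated libraries, while 5 of 7 gamma B members had a higher one. The gamma A sum was 317, 328 and 364 CPM in isolated libraries, against 343, 403 and 332 CPM in control libraries, and the gamma B sum was 118, 115 and 119 CPM in isolated libraries, against 102, 128 and 98.8 CPM in control libraries. Both sums overlapped between groups, with log2 differences of -0.10 for gamma A and 0.10 for gamma B, and control 2 was the highest control library in both. The overlap of the gamma B sums came from control 2 alone: without it the isolated libraries lay above the other 2 control libraries, with a log2 difference of 0.22, and without isolated 3 as well it was likewise 0.22. The gamma B difference was 0.03 without control 3 and 0.05 without control 1. For gamma A the difference was -0.01 without control 2, -0.15 without control 3 and -0.16 without isolated 3, where the isolated libraries lay below the control libraries. They also did so without control 2 and isolated 3, where the gamma A difference was -0.07. Without control 2, only 6 of 12 gamma A members had the lower mean, and without control 2 and isolated 3 it was 9 of 12. The 3 gamma C-type genes summed to 500.4, 482 and 496 CPM in isolated libraries, against 504, 526 and 512 CPM in control libraries. There the isolated libraries lay just below the control libraries, with a log2 difference of -0.06. Of all tested genes, 4.73% lay apart in this direction, a share of single genes that is no background for a sum.

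**Figure D3:**
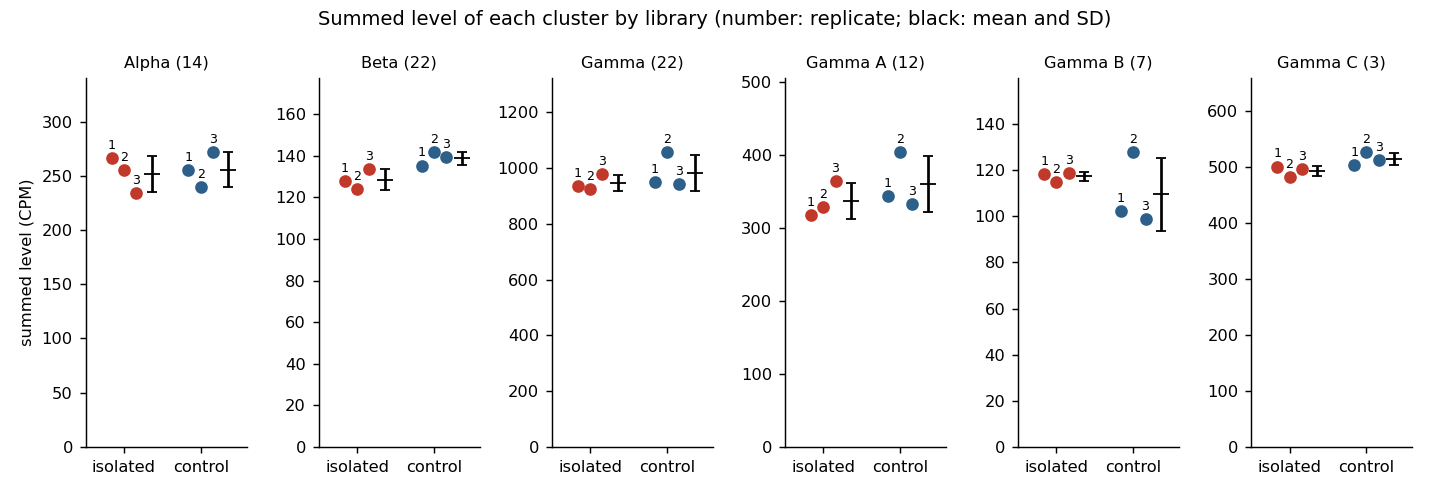
Summed level in CPM (y axes from 0, with a scale for each panel) of the alpha, beta and gamma clusters and of the gamma A, gamma B and gamma C-type members in each library, isolated in red on the left and control in blue on the right, with the replicate number and the mean ± SD in black. The beta and gamma C-type sums of the isolated libraries lie below those of the control libraries by a narrow margin, and the other sums overlap.

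Among single members, groups of libraries without overlap were counted in both directions. The isolated libraries all lay below the control libraries for 3 members, Pcdhac1, Pcdhb4 and Pcdhb15, where 4.73% of all tested genes did so. They lay above them for 0 of 57 members, where 4.12% of all genes did so. The share among the members, 3 of 57, was near that of all genes.

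Pcdhb15 is a single-exon beta gene with no exon base in common with another member, and 98.1% of its 50-base windows were unique in the family. It had 48.0, 44.0 and 49.5 expected counts in isolated libraries, against 63.1, 71.4 and 74.8 in control libraries. In CPM these were 2.61, 2.39 and 2.66 in isolated libraries, against 3.41, 3.87 and 4.12 in control libraries. The 3 isolated libraries lay close together and below all control libraries. The log2 difference was -0.57 (standard error 0.15, 95% interval -0.92 to -0.23, edgeR, adjusted p = 0.999). Over 15 other ways of processing, it ran from -0.64 to -0.30 (the smallest on the log2(FPKM + 1) scale, which understates differences of low genes), with unadjusted p from 0.00378 to 0.0295 and adjusted p from 0.880 upward. The difference rests on 44.0 to 74.8 expected counts per library, and it did not pass the correction over all genes.

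Pcdhb4, another single-exon beta gene, had 1.74, 2.01 and 1.81 CPM in isolated libraries, against 2.81, 2.34 and 2.09 CPM in control libraries. The gap between isolated 2 and control 3 was small beside the range of the control libraries. Its log2 difference was -0.38 (standard error 0.19, edgeR, adjusted p = 0.999). Pcdhb19 had 5.32, 5.71 and 7.40 CPM in isolated libraries, against 7.78, 8.99 and 7.04 CPM in control libraries. Here isolated 3 lay above control 3, and the log2 difference was -0.37 (standard error 0.16, edgeR, adjusted p = 0.999).

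Pcdhac1, the first of the alpha C-type genes, had 11.3, 11.7 and 7.83 CPM in isolated libraries, against 15.2, 11.8 and 13.4 CPM in control libraries. The groups were apart only by the small step between isolated 2 and control 2, and isolated 3 was the lowest library. Its log2 difference was -0.39 (standard error 0.17, edgeR, adjusted p = 0.999), and it was -0.22 without isolated 3 and -0.31 without control 2 as well. It held 4.07 ± 0.65% of alpha CPM in isolated libraries and 5.27 ± 0.59% in control libraries (SD, n = 3 each), again without overlap.

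The alpha member Pcdha4 had the largest log2 difference among the named members, and the highest within-group coefficient of variation among them. It had 8.14, 7.12 and 5.17 CPM in isolated libraries, against 5.57, 12.7 and 14.1 CPM in control libraries. Control 1 lay among the isolated libraries, far below the other 2 control libraries. The log2 difference was -0.66 (standard error 0.33, edgeR, adjusted p = 0.999). Leaving out 1 library gave between -0.98 (without control 1) and -0.42 (without control 3), and leaving out control 2 and isolated 3 together gave -0.37.

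Higher means in isolated libraries were seen for fewer members. Pcdha9 had 15.7, 17.6 and 17.9 CPM in isolated libraries, against 15.9, 13.9 and 15.6 CPM in control libraries. The groups overlapped through isolated 1 and control 1, with a log2 difference of 0.17 (standard error 0.09, edgeR, adjusted p = 0.999). Without control 2 and isolated 3 it was 0.08. Pcdhb8 had 2.28, 1.90 and 3.20 CPM in isolated libraries, against 1.84, 2.29 and 1.76 CPM in control libraries, a log2 difference of 0.33 (standard error 0.24). Isolated 3 alone lay above all control libraries for this gene, and without it the difference was 0.09, or 0.22 without control 2 as well.

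Of the gamma B members, Pcdhgb4 had 11.7, 9.84 and 11.9 CPM in isolated libraries, against 8.97, 11.5 and 8.96 CPM in control libraries. Pcdhgb7 had 16.3, 20.6 and 26.0 CPM in isolated libraries, against 17.7, 18.9 and 18.9 CPM in control libraries. Their log2 differences were both 0.18, with standard errors of 0.13 and 0.16, and their groups overlapped. For Pcdhgb4 the difference was 0.31 without control 2, and 0.12 without control 1 and likewise without control 3. For Pcdhgb7 it was 0.02 without control 2 and isolated 3, and -0.0027 without isolated 3 alone. Pcdhgb1 had 30.5, 22.8 and 13.6 CPM in isolated libraries, against 18.8, 20.4 and 17.8 CPM in control libraries. Its isolated libraries ran from below to above all control libraries, the log2 difference was 0.23 (standard error 0.25), and it was -0.06 without isolated 1, 0.49 without isolated 3 and 0.54 without control 2 as well.

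**Figure D4:**
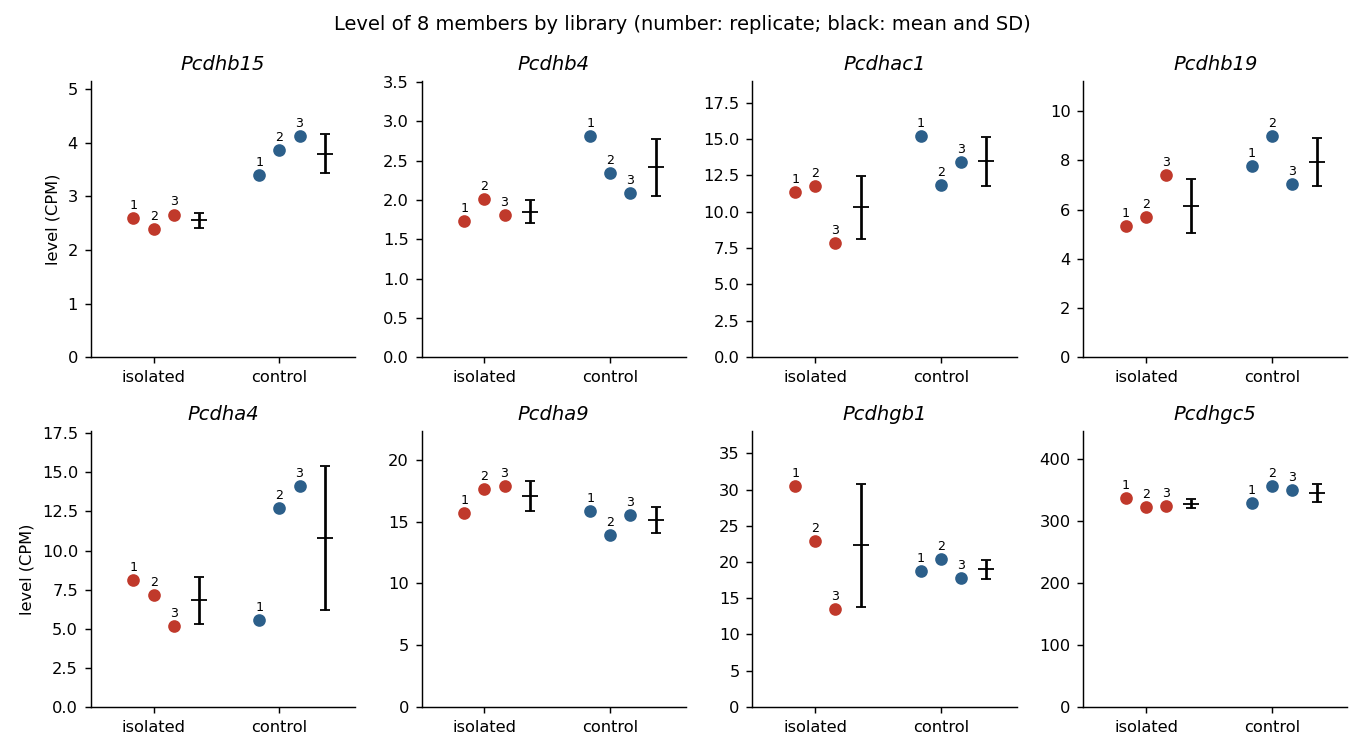
Level in CPM (y axes from 0, with a scale for each panel) of 8 members in each library, isolated in red on the left and control in blue on the right, with the replicate number and the mean ± SD in black. Pcdhb15 and Pcdhb4 show isolated libraries below all control libraries, Pcdhac1 does so by a small step, and the other 5 members overlap.

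The abundant C-type genes had the narrowest errors and showed differences near 0. Pcdhgc5 had 337, 323 and 324 CPM in isolated libraries, against 329, 357 and 349.9 CPM in control libraries. The groups overlapped through isolated 1, and the log2 difference was -0.07 (standard error 0.06, 95% interval -0.20 to 0.06). Pcdhgc3 had 134, 130.1 and 144 CPM in isolated libraries, against 146, 146 and 133 CPM in control libraries, a log2 difference of -0.06 (standard error 0.06). Pcdhac2 had 108, 108 and 99.4 CPM in isolated libraries, against 99.3, 100.1 and 109 CPM in control libraries, with a log2 difference of 0.03 and a standard error of 0.06. Both genes overlapped between the groups. Pcdhgc4 had 29.3, 28.6 and 27.4 CPM in isolated libraries, against 29.2, 23.4 and 29.8 CPM in control libraries. Its difference of 0.05 (standard error 0.10) turned to -0.05 without control 2, the lowest library.

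Among the other members with high levels, Pcdhga11 averaged 54.0 ± 2.9 CPM in isolated and 55.0 ± 8.5 CPM in control libraries. Pcdhga12 averaged 41.8 ± 1.4 CPM in isolated and 46.6 ± 4.8 CPM in control libraries, and Pcdhga3 averaged 34.7 ± 7.4 CPM in isolated and 36.04 ± 1.98 CPM in control libraries (SD, n = 3 each). Their log2 differences of -0.03, -0.16 and -0.05 all had 95% intervals that included 0. Pcdha12 averaged 27.6 ± 4.2 CPM in isolated and 30.7 ± 3.1 CPM in control libraries. Pcdha5 averaged 15.5 ± 1.0 CPM in isolated and 16.8 ± 2.2 CPM in control libraries (SD, n = 3 each). In the beta cluster, Pcdhb17 averaged 16.8 ± 1.3 CPM in isolated and 17.8 ± 1.1 CPM in control libraries, Pcdhb20 averaged 13.1 ± 1.2 CPM in isolated and 13.2 ± 1.4 CPM in control libraries, and Pcdhb9 averaged 10.6 ± 0.11 CPM in isolated and 10.6 ± 0.78 CPM in control libraries (SD, n = 3 each). In all of these the 2 groups overlapped.

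At the median, single members of each cluster varied more between libraries of the same group than did all tested genes, and alpha members varied most. The median within-group coefficient of variation was 20.3% over alpha, 13.3% over beta and 15.9% over gamma members, against 8.64% over all tested genes. The sums of whole clusters varied less, by 6.43% for alpha, 3.13% for beta and 5.14% for gamma. The highest library had over 2 times the lowest for 9 of 57 members, against 11.1% of all genes, and 5 of these were alpha members.

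Because low counts alone widen the spread, edgeR's within-group dispersion of each member was divided by the trend of all genes at the same level. This ratio was above 1 for 11 of 14 alpha, 12 of 21 beta and 19 of 22 gamma members, against 49.5% of all tested genes. It was above 2 for 10 of 14 alpha, 2 of 21 beta and 14 of 22 gamma members, against 25.1% of all genes. The highest ratios were 15.1 for Pcdhgb1, 12.9 for Pcdha7, 12.8 for Pcdha4, 11.97 for Pcdha11 and 9.999 for Pcdhga1. Pcdha7 had 6.46, 13.2 and 8.63 CPM in isolated libraries, against 5.08, 10.8 and 9.67 CPM in control libraries. Pcdha11 had 21.2, 10.3 and 15.1 CPM in isolated libraries, against 15.7, 11.6 and 15.6 CPM in control libraries. Pcdha7 differed widely within both groups, while Pcdha11 did so mainly within the isolated group, where isolated 1 and isolated 2 lay farthest apart.

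By contrast, the abundant C-type genes lay at or below the trend, with 0.361 for Pcdhgc5, 0.913 for Pcdhac2 and 0.934 for Pcdhgc3. The alpha cluster taken as a single feature had a ratio of 1.253 and the gamma cluster 0.735, and these sums hold a large part from the C-type genes. The sums of the other members had a within-group coefficient of variation of 7.52% for the 12 alpha members, 9.24% for gamma A and 9.97% for gamma B, against 5.58% for the alpha and 2.09% for the gamma C-type genes. The share of exon bases in common with other members was 53.5% at the median for alpha and 44.8% for gamma members, and 0% for beta members. The part of the division of shared reads in this spread was not tested.

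**Figure D5:**
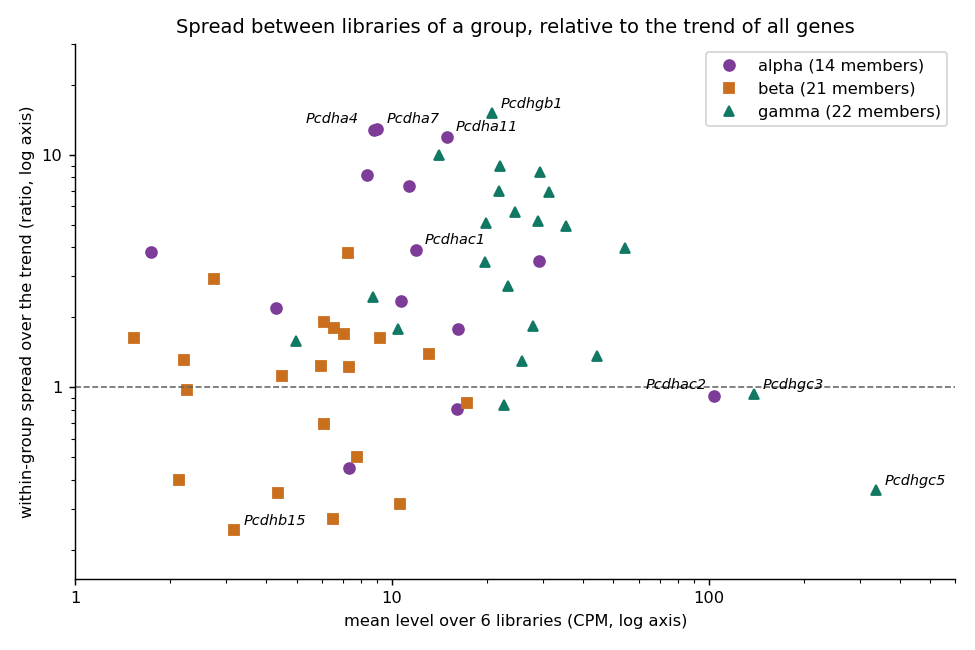
Within-group spread of each tested member divided by the trend of all genes (y axis, log scale) against its mean level in CPM over 6 libraries (x axis, log scale), with alpha members as circles, beta as squares and gamma as triangles. The dashed line marks the trend at 1. Most gamma and alpha members lie above it, up to 15.1 for Pcdhgb1, while beta members scatter around it and Pcdhgc5, Pcdhac2 and Pcdhgc3 lie at or below it.

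The libraries with the most striatal marker RNA also had the highest levels of many gamma members. Control 2 was the highest control library and isolated 3 the highest isolated library for 12 of 22 gamma members and 7 of 21 beta members, but for 0 of 14 alpha members, where 17.6% of all tested genes had this pattern. The gamma members comprised 7 gamma A genes, 4 gamma B genes and 1 C-type gene. The same 2 libraries were the lowest of their groups for 4 of 14 alpha, 2 of 21 beta and 1 of 22 gamma members, against 18.0% of all genes. Pcdhga9 had 17.5, 19.5 and 25.0 CPM in isolated libraries, against 21.4, 29.7 and 18.3 CPM in control libraries. Pcdhga10 had 18.3, 18.4 and 23.9 CPM in isolated libraries, against 21.4, 29.2 and 19.0 CPM in control libraries. Both genes, chosen after their values were seen, were highest in control 2 of all libraries. The sum of cortical glutamatergic markers was lowest in these libraries, at 6109 CPM in isolated 3 and 6326 CPM in control 2. Bcl11b, alone on that list, was instead the highest of its groups there, with 148 CPM in isolated 3 and 198 CPM in control 2. The part of striatal tissue in the levels of these libraries was not tested.

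Gm38666 and Gm38667, taken here as readthrough models of this region, are not members. Their exon overlap with the members was not measured. Gm38666 had 1.79, 1.47 and 4.85 CPM in isolated libraries, against 2.0, 5.72 and 0.989 CPM in control libraries, and was likewise highest in isolated 3 and control 2. Gm38667 had 1.95, 1.41 and 2.13 CPM in isolated libraries, against 2.38, 1.69 and 3.08 CPM in control libraries. Both were low beside the cluster sums.

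Genes that act on the clustered protocadherins showed no call at an adjusted p of 0.05. Of the architectural regulators, which loop a chosen promoter to its enhancer, 13 were tested, with 8 higher and 5 lower means in isolated libraries and 0 past the unadjusted threshold. Ctcf, the looping factor bound at the promoters, averaged 82.0 ± 3.2 CPM in isolated and 81.3 ± 1.4 CPM in control libraries, and the cohesin subunit Rad21 averaged 134 ± 3.5 CPM in isolated and 131 ± 2.7 CPM in control libraries (SD, n = 3 each). The cohesin regulator Pds5a, with the smallest p of this list, had 41.6, 41.8 and 43.8 CPM in isolated libraries, against 46.7, 44.9 and 47.7 CPM in control libraries, a log2 difference of -0.13 (standard error 0.06). Its isolated libraries lay below its control libraries by a narrow margin.

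Of 18 silencing and DNA methylation regulators, 9 had a higher and 9 a lower mean in isolated libraries, and 1 was lower at the unadjusted threshold, against 2.0% of all genes. This was Tet3, an enzyme that oxidises methylated cytosine, with 73.1, 69.0 and 72.2 CPM in isolated libraries, against 103, 87.8 and 71.0 CPM in control libraries. The groups overlapped through control 3, and its log2 difference was -0.29 (standard error 0.12, edgeR, adjusted p = 0.999). Trim28, a corepressor of zinc finger proteins, had 111, 111 and 113 CPM in isolated libraries, against 104, 106 and 104 CPM in control libraries, and the maintenance methyltransferase Dnmt1 had 74.1, 69.6 and 69.3 CPM in isolated libraries, against 66.8, 63.2 and 67.7 CPM in control libraries. In both, the isolated libraries lay above the control libraries, with log2 differences of 0.10 (standard error 0.04) and 0.11 (standard error 0.05). They were the only 2 of the 18 without overlap, and 4.12% of all tested genes lay apart in this direction. Rest, a repressor of neuronal genes, had 0.923, 1.251 and 1.49 CPM in isolated libraries, against 2.0, 1.96 and 1.48 CPM in control libraries, which overlapped. Smchd1, a repressor of the clustered protocadherins, averaged 45.2 ± 1.0 CPM in isolated and 46.7 ± 2.2 CPM in control libraries (SD, n = 3 each). Dnmt3b, the methyltransferase that marks these promoters in the embryo, averaged 0.790 ± 0.155 CPM in isolated and 0.744 ± 0.432 CPM in control libraries (SD, n = 3 each).

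Of 28 cytoplasmic partners and shedding enzymes, 13 had a higher and 15 a lower mean in isolated libraries, and 0 passed the unadjusted threshold. Marcks, a membrane-bound actin regulator, had 123, 124 and 126 CPM in isolated libraries, against 126.2, 165 and 136 CPM in control libraries. Its isolated libraries all lay below the control libraries, by a narrow step to control 1, with a log2 difference of -0.20 (standard error 0.10). Ptk2b, a focal adhesion kinase held in check by alpha and gamma protocadherins, averaged 595 ± 21 CPM in isolated and 614 ± 34 CPM in control libraries (SD, n = 3 each). Adam10, the protease that sheds gamma protocadherins, averaged 98.4 ± 0.31 CPM in isolated and 95.1 ± 4.7 CPM in control libraries (SD, n = 3 each). The groups of Ptk2b and Adam10 overlapped.

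Of 12 non-clustered protocadherins tested, 4 had a higher and 8 a lower mean in isolated libraries, with 0 past the unadjusted threshold. Pcdh17, with the smallest p of this list, had 95.7, 106 and 118 CPM in isolated libraries, against 94.0, 98.7 and 78.1 CPM in control libraries. Its groups overlapped through control 2, with a log2 difference of 0.24 (standard error 0.11). Pcdh10 averaged 41.0 FPKM and Pcdh1 averaged 38.7 FPKM over 6 libraries, both below Pcdhgc5 and above Pcdhgc3. Of 29 classical and atypical cadherins, 13 had a higher and 16 a lower mean, and 2 were lower at the unadjusted threshold, against 2.0% of all genes. They were Fat4, a large planar polarity cadherin, with a log2 difference of -0.37 and a standard error of 0.12, and Cdh7, with -0.23 and a standard error of 0.08. In both, the isolated libraries lay below the control libraries, as for 4.73% of all genes, and neither passed the correction over all genes. Cdh5 lay apart in the same direction, with a log2 difference of -0.16 (standard error 0.07), and did not pass the unadjusted threshold.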

How the data were processed

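For each library the authors deposited a gene table that holds expected counts, FPKM and gene lengths, per the file headers. Per the submitters' processing notes, RSEM, HISAT, Bowtie2 and mm10 were used, with neither version nor order stated. RefSeq transcripts are listed per the file headers, and strand use in counting is not given. A series-wide FPKM table was not used, because its 6 columns carry codes found in no sample label. A gene absent from a table was given 0, and the row without a symbol (at most 0.000947% of counts) was left out. The counts of no library were a copy of another's, since pairs differed by a chi-square of 2.90 to 20.4 per gene over genes with at least 20 counts. Whether libraries share RNA or an animal cannot be seen from this.

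Expected counts were rounded and compared with edgeR 4.0.16 (R 4.3.3): TMM factors, filterByExpr (minimum count 10, minimum total 15, leaving 15169 genes), the quasi-likelihood F-test without covariates and Benjamini-Hochberg adjustment over all tested genes with a threshold of 0.05. Fold changes are log2 of isolated over control with 95% intervals from the t distribution. The fit was tested on simulated data. A floor of 3 counts was used where a count was 0, and floors cover counting error only. Exon structure came from GENCODE M21 and coordinates from RefSeq GRCm38.p6. Cluster sums have no p-value; the alpha and gamma sums, whose members share exons, were also fitted as single features.

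Named members were the 5 C-type genes, the 3 other members per cluster with the highest mean CPM, and the 5 with the smallest p in each direction. For the other lists, 1 to 3 genes with the smallest p were named, beside a few chosen, after their values were seen, for their known role, their level or groups without overlap. Members and lists were chosen with earlier results of these data known. Alternatives were other size factors, DESeq2 1.42.0, limma-voom (limma 3.58.1), no filter, log2(FPKM + 1) and log2(FPKM + 0.1), each library left out, libraries high in striatal markers left out, and the replicate number as a block. Leaving libraries out of the gamma subfamily sums was added after seeing the data.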

Additional observations from a re-analysis of the deposited data

How the results depend on the processing

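No member was called at an adjusted p of 0.05 under any of the 15 alternatives, and over all genes DESeq2 called 1 gene (306 at an unadjusted p under 0.05), which was no member, while the other alternatives called 0. The count of members with a higher mean in isolated libraries, 16, ran from 14 to 25 when a library was left out, and that of gamma A members with a lower mean, 12, from 6 to 12, with both extremes of change without control 2. Cluster sums moved by less than the spread between libraries under every alternative run. Of the 22 named members, 15 kept their direction under all alternatives. The others changed sign on leaving out 1 library, with log2 ranges of -0.053 to 0.11 for Pcdhgc4, -0.092 to 0.060 for Pcdhb20, -0.069 to 0.025 for Pcdhb9, -0.15 to 0.065 for Pcdhga11, -0.24 to 0.062 for Pcdhga3, -0.0027 to 0.34 for Pcdhgb7 and -0.062 to 0.49 for Pcdhgb1. Without control 2 and isolated 3 the differences of Pcdhgc4, Pcdhb9 and Pcdhga11 were -0.029, 0.032 and 0.025. The cause was not tested. With the replicate number as a block, 0 members and 0 genes were called (331 genes and 1 member at an unadjusted p under 0.05). The labels give no pairing, so the numbers were not taken as pairs. Deviations of same-numbered libraries from their group means correlated at r = 0.03, -0.27 and -0.49 across genes, which are not independent replicates. The highest value was 0.44, for isolated 3 with control 2. With so few libraries per group these values constrain each other, so they cannot decide whether the numbers mark pairs. Depth limits low members: Pcdhb1 could not be tested, and fits that leave out a library assume that libraries of both groups vary alike.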
